A study of Mus musculus with 8 samples.

Results

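The 10 genes of dendritic cell (DC) maturation, *Ccr7*, *Fscn1*, *Ccl22*, *Ccl17*, *Il4i1*, *Cacnb3*, *Socs2*, *Relb*, *Cd83* and *Samsn1*, were followed through single cells of MC38 tumors. They were taken as a named list, and all 10 were found among the 24787 genes listed for the series. Single cells came from 8 subcutaneous MC38 tumors, a colon adenocarcinoma line of C57BL/6 origin grown in 8-week-old female C57BL/6J mice, 24 hours after a dose of saline (3 tumors), free R848 (3 tumors) or medium R848-BPDs (2 tumors). R848 (resiquimod) is a small-molecule agonist of Toll-like receptors 7 and 8, and R848-BPDs are bottlebrush polymer prodrugs that carry R848 on an ester linker, here the linker with the medium release rate. CD45+ and CD45- cells of each tumor were loaded at 9 to 1 onto Seq-Well arrays, which pair cells with barcoded beads in small wells, and transcripts were counted by unique molecular identifiers (UMIs). Since immune cells were enriched before loading, the abundance of DC-like and mature cells is given over nonmalignant or DC-like cells.

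A conventional DC that senses a microbial or damage signal stops sampling its surroundings and changes its program. It gains the chemokine receptor CCR7, which leads it along CCL19 and CCL21 gradients into lymphatics and lymph nodes, rebuilds its actin skeleton with fascin-1, and displays costimulatory molecules to T cells. Such cells are found in tumors as mature, CCR7-positive DCs that express stimulatory and regulatory genes together.

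Of the list, *Ccr7* (chr11:99144196-99155077, minus strand, positions from GENCODE vM21 on GRCm38) and *Fscn1* (chr5:142960343-142973185, plus strand) serve migration. *Ccl22* (chr8:94745590-94751699) and *Ccl17* (chr8:94810453-94812036) encode the ligands of CCR4, a receptor of regulatory and other T cells. Both lie on the plus strand, with 58754 bases between the end of *Ccl22* and the start of *Ccl17*. *Il4i1* (chr7:44816387-44840809, plus strand) encodes a secreted amino acid oxidase that limits T cells, *Socs2* (chr10:95385362-95417180, minus strand) an inhibitor of cytokine signaling and *Relb* (chr7:19606217-19629438, minus strand) the subunit of the noncanonical nuclear factor κB (NF-κB) pathway that DC maturation requires. *Cd83* (chr13:43784775-43803132, plus strand) encodes a surface protein that stabilizes MHC class II and CD86, *Samsn1* (chr16:75858793-76022281, minus strand) an adaptor of immune cells and *Cacnb3* (chr15:98630840-98644529, plus strand) a β subunit of voltage-gated calcium channels.

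Upstream sequence is shown for the neighboring chemokine genes, whose mean levels in DC-like cells were lowest after R848-BPDs, and for *Fscn1*, whose mean was highest there. The sequences come from RefSeq promoters on GRCm38.p6, plus strand, 5′ to 3′, and stop before the first base of the gene in either annotation. Capitals mark matches to GGGNNNNNCC on either strand, the letters shared by most NF-κB sites.
Ccl22, chr8:94745434-94745589: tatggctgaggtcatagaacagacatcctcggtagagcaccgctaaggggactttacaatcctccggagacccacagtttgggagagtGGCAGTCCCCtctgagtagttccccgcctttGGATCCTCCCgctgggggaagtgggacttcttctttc
Ccl17, chr8:94810203-94810452: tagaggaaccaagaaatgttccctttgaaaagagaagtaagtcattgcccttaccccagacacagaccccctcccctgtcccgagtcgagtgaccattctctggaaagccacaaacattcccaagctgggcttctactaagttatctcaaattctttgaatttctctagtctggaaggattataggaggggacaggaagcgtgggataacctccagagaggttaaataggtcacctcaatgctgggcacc
Fscn1, chr5:142960105-142960342: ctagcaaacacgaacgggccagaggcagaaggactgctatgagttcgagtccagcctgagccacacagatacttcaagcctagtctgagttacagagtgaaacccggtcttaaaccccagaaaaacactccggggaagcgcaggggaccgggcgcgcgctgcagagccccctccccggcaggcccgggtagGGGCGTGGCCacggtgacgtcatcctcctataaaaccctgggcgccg
RefSeq promoters were matched for 6 of the 10 genes, and not for *Ccr7*, *Socs2*, *Relb* and *Cd83*. In the 250 bases upstream of the RefSeq start, GGGNNNNNCC occurred in 4 of the 6 genes (*Fscn1*, *Il4i1*, *Ccl22* and *Cacnb3*) and in 45.8% of all 32851 promoters in the table. The stricter NF-κB consensus occurred in none of the 6 and in 7.25% of all promoters. These counts describe letters in a short window.

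Of 10791 barcodes, 9886 were kept after quality control, at 5867590 to 12422614 UMIs per tumor and a median of 3247 to 6928 UMIs per cell. A poor-quality cluster of 204 cells was set aside. Scrublet marked 100 cells as doublets, 49 of them in free R848 replicate 1, and 59 kept cells shared a barcode sequence with another library, none of them a mature DC-like cell. Clusters drawn without the maturation genes gave 596 DC-like, 5351 monocyte/macrophage-like, 983 NK-like, 703 T-like, 137 neutrophil-like, 139 osteoclast-like, 50 fibroblast-like and 1723 MC38-like cells. Which tumors shared a sequencing run is not stated in the labels, so that run and treatment cannot be told apart.

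All 10 genes were highest in DC-like cells, whose 2 clusters each held 12 or 13 detected DC markers. Counts were summed over the cells of a class in each tumor and given as counts per 1e6 UMIs of that class (CPM), so that a level can be compared between classes or tumors for the same gene. *Ccr7* averaged 2721 ± 1008 CPM in DC-like cells over the 8 tumors (SD), with T-like cells, some of which use the same receptor to recirculate, next at 318 ± 121 CPM. *Fscn1* averaged 1913 ± 1073 CPM in DC-like cells and 409 ± 47.6 CPM in MC38-like cells, the malignant class. *Cd83* averaged 1437 ± 157 CPM, and the monocyte/macrophage-like cells came second at 518 ± 250 CPM. For 8 of the 10 genes every tumor's DC-like level lay above every tumor's level in the next class. The exceptions were *Ccl17*, at 82.1 ± 88.8 CPM with a lowest tumor of 8.03 CPM, which overlapped the 13.1 ± 18.6 CPM of osteoclast-like cells (2 tumors), and *Samsn1*, at 1028 ± 425 CPM, which overlapped the 712 ± 201 CPM of neutrophil-like cells (5 tumors).

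**Figure D1:**
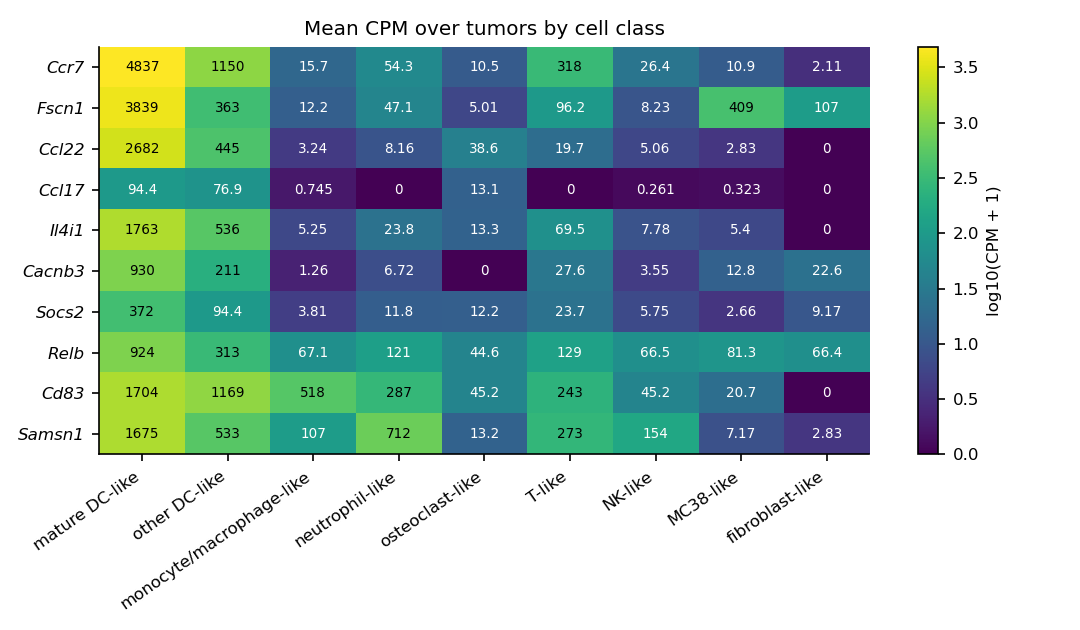
Mean CPM of the 10 genes (rows) in each cell class (columns), averaged over tumors that had 10 or more such cells, with color on a log10(CPM + 1) scale. Mature DC-like cells hold the highest mean of every gene, which for *Ccr7* and *Fscn1* follows from the gate. For *Ccl17* the order is not stable. Pooled over tumors, it was at 72.4 CPM in mature cells and 253 CPM in cells with *Ccr7* but no *Fscn1*. It was at 24.0 CPM in cells with *Fscn1* but under 3 *Ccr7* UMIs and 91.1 CPM in cells with neither. Outside DC-like cells *Cd83* is highest in monocyte/macrophage-like cells.

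Because most cells loaded were not DCs, the share of a gene's UMIs that came from DC-like cells differed widely. These shares are over all classes, MC38-like cells included, in the enriched mix that was loaded. After saline, DC-like cells gave 89.3 ± 2.62% of all *Ccl22* UMIs and 76.3 ± 7.03% of *Il4i1* UMIs but 12.8 ± 9.19% of *Cd83* UMIs and 17.1 ± 9.94% of *Relb* UMIs (n = 3 tumors). Most *Cd83* and *Relb* UMIs of the loaded cells thus lay outside DC-like cells, and most *Ccl22* UMIs within them.

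Mature DC-like cells were those with at least 3 *Ccr7* UMIs and at least 1 *Fscn1* UMI, which makes these 2 genes part of the definition and not results about it. The gate held 252 of 596 DC-like cells, 247 of them in a cluster of 320 cells that had been drawn without these genes. It held 28 of 703 T-like cells (3.98%), 18 of 1723 MC38-like cells (1.04%), and 5 of 5351 monocyte/macrophage-like cells (0.0930%). At its edge, 5 mature cells had exactly 3 *Ccr7* UMIs, 10 had exactly 1 *Fscn1* UMI and 5 cells with *Fscn1* stopped at 2 *Ccr7* UMIs.

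Except for *Ccl17*, the genes outside the definition were higher in mature than in other DC-like cells of the same tumor. Over the 7 tumors with at least 10 cells of both kinds and the tumor as a block, 7 of the 7 genes that passed the filter on low counts rose (edgeR's quasi-likelihood test, adjusted p under 0.05), where 19.0% of all 2934 genes tested did. The list was chosen as maturation genes with earlier results of these data known. This count therefore describes the gated cells and is no independent test of the list. The log2 fold change was 2.58 ± 0.47 (SE) for *Cacnb3*, 2.48 ± 0.45 for *Socs2*, 2.25 ± 0.43 for *Ccl22*, 1.96 ± 0.27 for *Il4i1*, 1.84 ± 0.25 for *Samsn1* and 1.65 ± 0.21 for *Relb*. *Cd83* had the smallest, at 0.61 ± 0.15 (adjusted p = 0.0041). *Ccl17* did not pass the filter. After saline, mature cells held 13.2 ± 12.1% of its DC-like UMIs and gave 18.4 to 21.8% of all DC-like UMIs.

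The share of DC-like cells that were mature was lowest after saline and highest after R848-BPDs, while the share of DC-like cells overlapped between treatments. DC-like cells made up 7.32 ± 5.20% of nonmalignant cells after saline (n = 3), 6.82 ± 1.42% after free R848 (n = 3) and 8.59 ± 0.996% after R848-BPDs (n = 2), and all groups overlapped (two-sided exact permutation p = 0.3 to 0.9). Of the DC-like cells, 19.3% (28 of 145), 16.7% (4 of 24) and 16.7% (14 of 84) were mature in the saline tumors. The free R848 tumors had 60.5% (26 of 43), 39.1% (27 of 69) and 50% (31 of 62). The R848-BPD tumors had 69.4% (77 of 111) and 77.6% (45 of 58). No tumor of one treatment overlapped another treatment. The means of 17.5 ± 1.53%, 49.9 ± 10.7% and 73.5 ± 5.81% differed by 32.3 points between free R848 and saline (p = 0.1), by 55.9 points between R848-BPDs and saline (p = 0.1) and by 23.6 points between R848-BPDs and free R848 (p = 0.2) in two-sided exact permutation tests. Neither 3 against 3 nor 2 against 3 tumors can give a p below 0.1, so that none of these can pass 0.05. Counting error alone was wide, with exact 95% intervals of 44.4 to 75% for the highest free R848 tumor and 59.9 to 77.8% for the lower R848-BPD tumor.

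The groups stayed apart when cells were thinned to 2000 UMIs with at least 1 UMI of both genes (18.0, 48.6 and 72.0%, 32 shallower DC-like cells left out) and when the mature cluster replaced the gate (26.5, 64.8 and 88.1%). Thinned to 1000 UMIs, free R848 and R848-BPDs overlapped, at 47.0 ± 10.4% and 57.7 ± 1.32% (difference 10.7 points, exact permutation p = 0.3). Gated cells of any class were 1.53 ± 0.989% of nonmalignant cells after saline, 3.71 ± 0.574% after free R848 and 7.33 ± 0.758% after R848-BPDs, again without overlap.

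As a share of DC-like cells with at least 3 *Ccr7* UMIs, cells without *Fscn1* were most frequent after saline. Among DC-like cells with at least 3 *Ccr7* UMIs, *Fscn1* was found in 57.1, 57.1 and 35% after saline (28 of 49, 4 of 7 and 14 of 40 cells), in 81.2, 73.0 and 83.8% after free R848 and in 87.5 and 95.7% after R848-BPDs. This split was chosen after the values were seen and was not tested. The saline tumor at 35% was also the shallowest, with a median of 2750 UMIs per DC-like cell, beside 4358 and 4827 UMIs in the other saline tumors and 3801 to 5267 UMIs in the treated tumors. The part of depth in these shares was not tested. *Ccr7*-positive cells without *Fscn1* numbered 50 after saline, 22 after free R848 and 13 after R848-BPDs, of which 14, 17 and 11 belonged to the mature cluster. Of the 50 saline cells, 26 came from the third tumor. Over all DC-like cells, such cells were 21 of 145, 3 of 24 and 26 of 84 after saline. They were 6 of 43, 10 of 69 and 6 of 62 after free R848 and 11 of 111 and 2 of 58 after R848-BPDs. On that base saline and free R848 overlapped. Pooled within each treatment, the cells without *Fscn1* held *Cacnb3* at 30.6 CPM against 847 CPM in mature cells after saline, 531 against 1154 CPM after free R848 and 359 against 831 CPM after R848-BPDs. *Il4i1* stood at 647 against 1591 CPM after saline, but at 1456 against 1598 CPM after free R848 and at 2196 against 2009 CPM after R848-BPDs. *Mgl2*, a lectin of type 2 conventional DCs, stood at 651 against 217 CPM, 147 against 11.4 CPM and 11.2 against 6.01 CPM. These sums over few cells have no test.

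**Figure D2:**
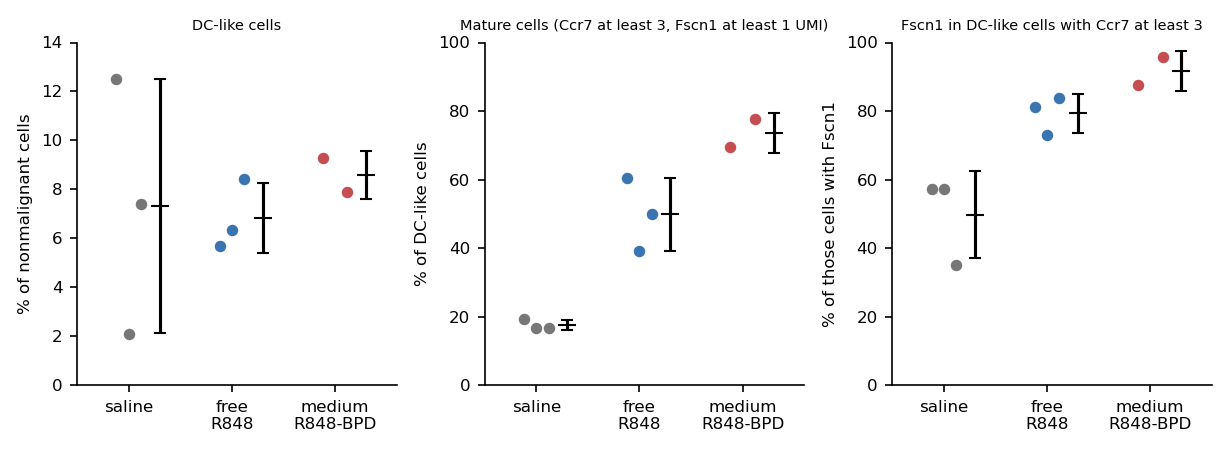
Percentages per tumor (points) with mean ± SD beside them, for DC-like cells among nonmalignant cells (left), mature cells among DC-like cells (middle) and cells with *Fscn1* among DC-like cells with at least 3 *Ccr7* UMIs (right). The left panel overlaps between treatments, whereas the middle panel goes from 16.7 to 19.3% after saline to 39.1 to 60.5% after free R848 and 69.4 to 77.6% after R848-BPDs.

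Summed over all DC-like cells, *Fscn1*, *Cacnb3* and *Socs2* were higher after either form of R848 than after saline, *Il4i1*, *Samsn1* and *Relb* were higher after R848-BPDs, and *Ccl17* was lower after R848-BPDs. The migration gene *Fscn1* stood at 609, 1089 and 784 CPM after saline, 3112, 1822 and 1684 CPM after free R848 and 3300.2 and 2900.3 CPM after R848-BPDs. Every treated tumor was above every saline tumor. The log2 fold change against saline was 1.44 ± 0.26 after free R848 (adjusted p = 0.023) and 1.96 ± 0.29 after R848-BPDs (adjusted p = 5.1e-04, edgeR's quasi-likelihood test, adjusted by Benjamini-Hochberg over the 5450 genes tested, as for the fits that follow). *Ccr7* stood at 1330.4, 1342 and 2938 CPM after saline, 3964, 2115 and 3165 CPM after free R848 and 3581 and 3333 CPM after R848-BPDs, with the third saline tumor inside the range after free R848, and missed the threshold in both comparisons (log2 fold changes 0.72 ± 0.30, adjusted p = 0.191, and 0.91 ± 0.32, adjusted p = 0.063).

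Of the 10 genes, 3 were called after free R848 (all higher, where 1.16% of all genes were called higher) and 7 after R848-BPDs (6 higher and 1 lower, where 9.72% and 8.51% of all genes were). DESeq2 called 4 of the 10 genes after free R848 and 5 after R848-BPDs. The 2 comparisons share the saline tumors. The median log2 fold change of the 10 genes was 0.83 after free R848 and 1.14 after R848-BPDs, against -0.0033 and -0.005 over all genes tested. *Cacnb3*, the calcium channel subunit, stood at 185, 316 and 175 CPM after saline, 1080.3, 559 and 486 CPM after free R848 and 778 and 619 CPM after R848-BPDs. Its log2 fold change against saline after free R848 and R848-BPDs was 1.72 ± 0.31 and 1.74 ± 0.33 (adjusted p = 0.023 and 0.0027). *Socs2*, the cytokine signaling inhibitor, stood at 90.6, 94.7 and 87.6 CPM after saline, 478, 174 and 186 CPM after free R848 and 304 and 201 CPM after R848-BPDs, with 1 free R848 tumor far above the rest, and changed by 1.61 ± 0.36 and 1.54 ± 0.39 (adjusted p = 0.039 and 0.012). After free R848, the *Socs2* call was lost in 4 of 9 other settings, while those of *Fscn1* and *Cacnb3* held in all 9. Without either the first or the third saline tumor, none of the 3 genes was called after free R848, and without the first saline or the first R848-BPD tumor, 4 of the 10 genes were called after R848-BPDs.

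*Il4i1*, the secreted oxidase, stood at 431, 497 and 784 CPM after saline, 1554, 739 and 918 CPM after free R848 and 1958 and 1484 CPM after R848-BPDs. The R848-BPD tumors were apart from the saline tumors (log2 fold change 1.62 ± 0.31, adjusted p = 0.0027), while the free R848 range reached down to it (adjusted p = 0.103). *Samsn1* rose after R848-BPDs by 1.36 ± 0.25 (adjusted p = 0.0022), from 621 ± 134 to 1552 ± 192 CPM. *Relb* rose by 0.87 ± 0.29 (adjusted p = 0.049), a call that ended when any of 6 tumors was left out (adjusted p = 0.055 to 0.24). *Cd83* stood at 1484, 1365 and 1401 CPM after saline, 1747, 1477 and 1498 CPM after free R848 and 1287 and 1238 CPM after R848-BPDs, with both R848-BPD tumors below the rest (log2 fold change against saline -0.14 ± 0.20, adjusted p = 0.691). *Ccl17* fell after R848-BPDs by 2.95 ± 0.76 on the log2 scale (adjusted p = 0.014). It rests on few UMIs, with 181, 2 and 44 UMIs after saline, 2, 14 and 39 after free R848 and 13 and 6 after R848-BPDs, so that the second saline tumor, at 15.8 CPM, was below both R848-BPD tumors. The call ended without the first saline tumor or either R848-BPD tumor (adjusted p = 0.055 to 0.16), and DESeq2 did not make it (adjusted p = 0.19).

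None of the 10 genes was called between R848-BPDs and free R848 in DC-like cells by edgeR or DESeq2, where edgeR called 1.1% of all genes. At an unadjusted p under 0.05 there were 3, *Ccl22* (log2 fold change -1.18 ± 0.40), *Il4i1* (0.71 ± 0.31) and *Samsn1* (0.54 ± 0.25). On simulated counts this comparison recovered 84% of 4-fold and 22% of 2-fold changes placed in 200 of 5450 genes. In mature cells it recovered 77% and 21%, and in other DC-like cells 61% and 15%, so that smaller changes there could be missed.

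**Figure D3:**
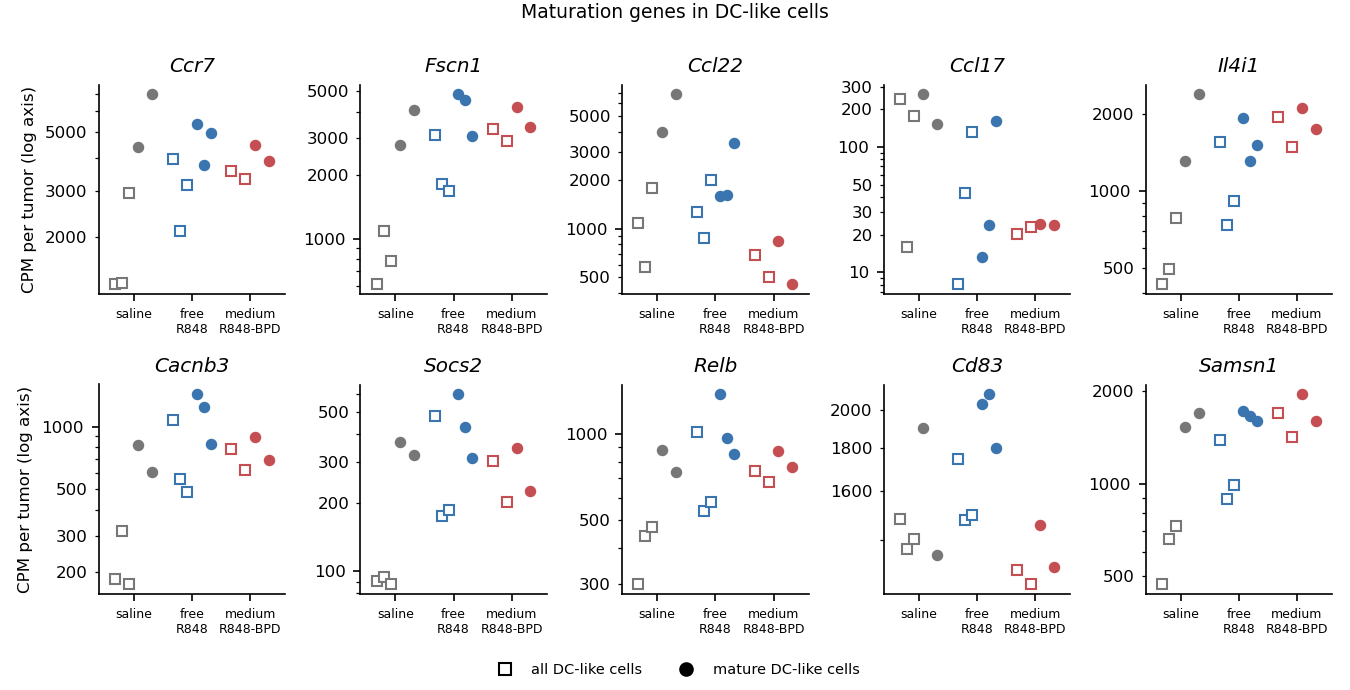
CPM per tumor of each gene on its own log axis, in all DC-like cells (open squares) and in mature DC-like cells of tumors with at least 10 of them (filled circles), by treatment. The squares of *Fscn1*, *Cacnb3* and *Socs2* were called higher than after saline for both treatments, and *Ccl22* is the 1 gene with a called change among the circles, which go from 3961 and 6865 CPM after saline to 843 and 452 CPM after R848-BPDs.

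Within mature cells, *Ccl22* fell and the other 7 of the 8 genes outside the gate were not called. The fit used 7 tumors, since saline replicate 2 had 4 mature cells and was left out. *Ccl22*, the CCR4 ligand, stood at 3961 and 6865 CPM after saline, 1599, 1628 and 3427 CPM after free R848 and 843 and 452 CPM after R848-BPDs. Both R848-BPD tumors were below all free R848 tumors, which were in turn below both saline tumors. It was the only gene of the list called in mature cells with these settings, falling by 3.06 ± 0.42 on the log2 scale between R848-BPDs and saline, to 0.120 of the saline level (adjusted p = 0.008, where 0.365% of 3560 genes were called lower). The call held in all 7 fits that left out a tumor (log2 fold change -3.53 to -2.62) and under each other setting tried, but 4 of the 7 compared an arm of 1 tumor, which was assumed to vary like the tumors of the other groups. Against free R848 the log2 fold change was -1.78 ± 0.38 and missed the threshold (adjusted p = 0.064, where 0.337% of genes were called). DESeq2 called it (adjusted p = 0.0019), as did a fit of the 2 groups alone (0.024), the mature cluster in place of the gate (0.0046), and fits without the first R848-BPD tumor (0.039), the first saline tumor (0.016) or the third (0.0075). Free R848 differed from saline by -1.28 ± 0.35 (adjusted p = 0.364, where edgeR called 0.0% of genes).

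The share of mature cells with the transcript was also lowest after R848-BPDs. At full depth, *Ccl22* was detected in 85.7 and 92.9% of mature cells after saline, in 76.9, 77.8 and 87.1% after free R848 and in 67.5 and 53.3% after R848-BPDs, whereas at most 1.18% of the monocyte/macrophage-like cells of any tumor had a *Ccl22* UMI. With each cell thinned to 2000 UMIs (3 free R848 and 2 saline mature cells left out as shallower), the means were 82.7 ± 0.841% after saline (2 tumors), 75 ± 8.84% after free R848 and 43.6 ± 8.18% after R848-BPDs, against at most 0.945% in monocyte/macrophage-like cells. Median depths of mature cells were 4247 and 3198 UMIs after saline, 3746 to 4611 after free R848 and 5195 and 3860 after R848-BPDs. The 4 mature cells of saline replicate 2, outside the fit, held *Ccl22* at 2113 CPM (54 UMIs). In the mature cluster, drawn without *Ccl22*, the levels were 4143, 1489 and 4925 CPM after saline (the second from 7 cells), 1524, 1686 and 3215 CPM after free R848 and 779 and 567 CPM after R848-BPDs. *Ccl17*, the neighboring gene, was at 263 and 152 CPM after saline, 13.2, 23.9 and 161 CPM after free R848 and 24.1 and 23.8 CPM after R848-BPDs in mature cells, with log2 fold changes of -3.22 ± 0.75 for R848-BPDs against saline and -1.51 ± 0.76 against free R848 (adjusted p = 0.072 and 0.598). *Ccl17* was called against saline with no filter on low counts (adjusted p = 3.7e-06), with the 2 groups alone (0.038), with the mature cluster in place of the gate (0.0034), and without free R848 replicate 1 or 3 (0.040 and 0.014) or saline replicate 3 (0.034), but not with DESeq2 (0.053).

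For the other genes outside the gate, mature cells gave no call between the 3 treatments. *Samsn1* was at 1525 and 1689 CPM after saline, 1718, 1652 and 1593 CPM after free R848 and 1949 and 1599 CPM after R848-BPDs, and all groups overlapped. *Il4i1* was at 1310.2 and 2404 CPM after saline, 1928, 1309 and 1513 CPM after free R848 and 2127 and 1752 CPM after R848-BPDs. Changes of these 6 genes against saline lay between -0.30 and 0.67 on the log2 scale for both agents (lowest for *Socs2* after R848-BPDs, highest for *Cacnb3* after free R848), with SEs of 0.21 to 0.36. No gene of the list was called in mature cells between free R848 and saline, with 3 at an unadjusted p under 0.05 (*Ccl22*, *Ccl17* and *Cacnb3*) and none by DESeq2. *Cd83* was at 1904 and 1343 CPM after saline, 2033, 2091 and 1803 CPM after free R848 and 1458 and 1299 CPM after R848-BPDs, where both R848-BPD tumors were below all free R848 tumors (log2 fold change -0.53 ± 0.22, adjusted p = 0.478).

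**Figure D4:**
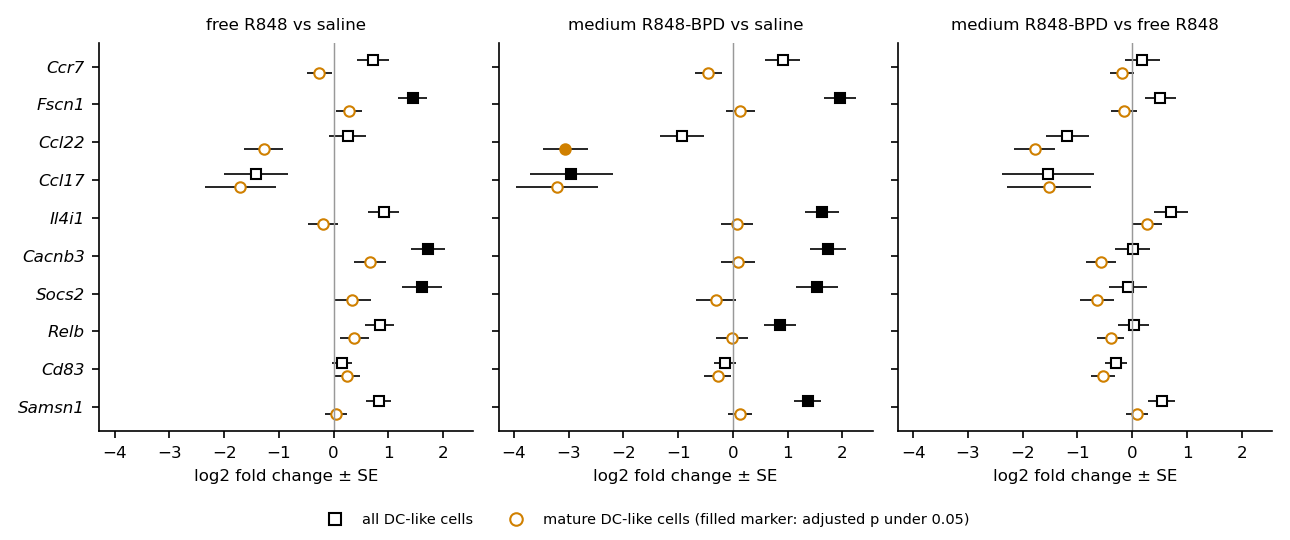
Log2 fold change ± SE of each gene in all DC-like cells (squares) and in mature DC-like cells (circles) for the 3 comparisons, with filled markers where the adjusted p was under 0.05. For R848-BPDs against saline, the filled squares of *Cacnb3*, *Socs2*, *Il4i1* and *Samsn1* lie to the right of 0 and their circles between -0.30 and 0.13, and *Ccl22* has the 1 filled circle, at -3.06.

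The level of a gene in DC-like cells depends on how much of their RNA comes from mature cells and on how much of the gene each kind holds. Mature cells gave 18.4 to 21.8% of DC-like UMIs after saline, 38.3 to 61.0% after free R848 and 70.3 and 79.8% after R848-BPDs. From group means of these shares and levels, with all 8 tumors, the difference of R848-BPDs from saline was divided into a part from the share and parts from the levels within mature and other cells. For *Fscn1*, the difference of 2281 CPM held 1811 CPM from the share, -71.9 CPM within mature cells and 542 CPM within others, with the gate itself resting on this gene. Without saline replicate 2, with its 4 mature cells, the part within mature cells was 172 CPM. For *Samsn1*, 647 of 931 CPM came from the share, and for *Relb* the share part was 316 CPM beside a difference of 309 CPM. *Ccl22* ran against this, with a share part of 1119.9 CPM and a within-mature part of -1743 CPM, so that its DC-like level differed by -551 CPM. Without saline replicate 2 these were 1398, -2266 and -843 CPM. Between free R848 and saline the *Ccl22* parts were 887 and -748 CPM and the whole difference 206 CPM, which without saline replicate 2 became 1045, -1140.3 and -87.3 CPM. The tumors stood at 1091, 576 and 1779 CPM after saline, 1269, 873 and 1994 CPM after free R848 and 689.7 and 501 CPM after R848-BPDs in all DC-like cells. *Cd83* after R848-BPDs had 254 CPM from the share, -200.2 CPM within mature cells and -198 CPM within others, or 185, -116 and -237 CPM without saline replicate 2. This division is arithmetic on group means and has no test.

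**Figure D5:**
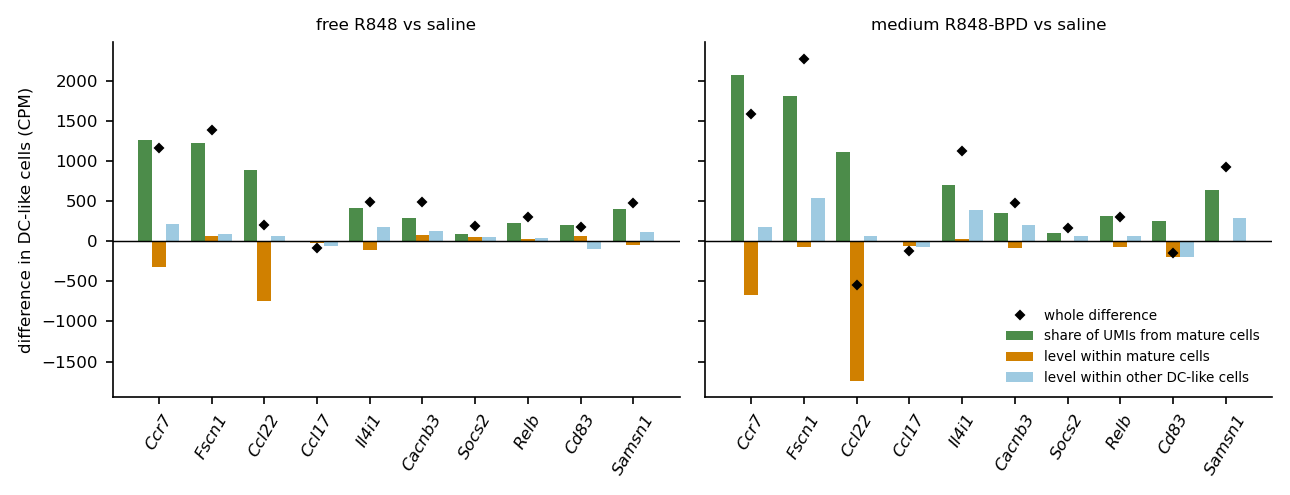
Difference from saline in DC-like cells (black diamonds, CPM) and its parts (bars from 0) from the share of UMIs that mature cells gave, the level within mature cells and the level within other DC-like cells, after free R848 (left) and R848-BPDs (right). The share part is positive or near 0 for all 10 genes, and the within-mature part of *Ccl22* is the largest negative bar in both panels.

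In DC-like cells outside the gate, *Cacnb3* and *Il4i1* were higher and *Ccl17* was lower after R848-BPDs than after saline. By the gate's construction *Fscn1* there comes from cells with fewer than 3 *Ccr7* UMIs. Of the 8 genes outside the definition, *Cacnb3* (3.75 ± 0.72, adjusted p = 0.0072) and *Il4i1* (2.03 ± 0.55, adjusted p = 0.039) rose and *Ccl17* fell by 3.69 ± 1.02 on the log2 scale (adjusted p = 0.043), where 5.68% of 4016 genes were called. *Cacnb3* was at 8.51, 29.7 and 78.0 CPM after saline, 526, 138 and 74.4 CPM after free R848 and 498 and 337 CPM after R848-BPDs. None of the 3 was called without the first saline tumor (adjusted p = 0.069 to 0.20) or the first R848-BPD tumor (0.14 to 0.64), which left 1 tumor in that arm. With DESeq2 and with the replicate number as a block, only *Cacnb3* was still called (adjusted p = 0.049 and 0.037), *Il4i1* was not (0.19 and 0.11), and *Ccl17* had no adjusted p in DESeq2 and 0.097 with the block. The mature cluster held 29 of the 47 R848-BPD cells outside the gate. Outside that cluster the R848-BPD tumors had 13 and 7 DC-like cells, so the second was under the minimum of 10 cells, as was the first free R848 tumor with 8. With 1 R848-BPD tumor of 13 cells, that fit could not test these calls, and its log2 fold change for *Il4i1* was -0.44. In the other 2 comparisons none of the 8 genes was called by edgeR or DESeq2, where edgeR called 0.274% of genes against free R848 and 0.125% between free R848 and saline. Of the 8 genes, 0 and 2 had an unadjusted p under 0.05.

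Other genes of mature DCs were called in all DC-like cells and, apart from 1 subset gene, not within mature cells, where few genes of any kind were called. Of 10 costimulatory and checkpoint genes, 6 rose after R848-BPDs and 2 after free R848 (over all DC-like genes, 9.72% and 1.16% were called higher), among them *Cd274*, encoding PD-L1 (log2 fold changes 1.93 ± 0.28, adjusted p = 4.7e-04, and 1.25 ± 0.26, adjusted p = 0.029), and *Cd200* (2.52 ± 0.39, adjusted p = 6.9e-04, and 1.55 ± 0.37, adjusted p = 0.046). *Pdcd1lg2*, encoding PD-L2, rose after R848-BPDs by 2.18 ± 0.40, adjusted p = 0.002. Of 9 cytokine and chemokine genes tested, 5 rose and 1 fell after R848-BPDs (8.51% of all genes were called lower) and 1 rose after free R848. *Il6* was also called between R848-BPDs and free R848 (1.87 ± 0.36, adjusted p = 0.024). Of 11 genes of the NF-κB pathway, 4 rose after R848-BPDs, among them *Nfkb2*, which encodes the partner of RelB (log2 fold change 1.12 ± 0.23, adjusted p = 0.0035), and none after free R848. Of 8 migration and cytoskeleton genes, 2 rose and 1 fell after R848-BPDs, a share of falls close to that of all genes, and the integrin gene *Itgb7* also fell against free R848 (-1.86 ± 0.33, adjusted p = 0.013). In mature cells, 0 of the 37 tested genes of these 4 lists were called in any comparison, where 0.337%, 0.0% and 0.787% of all genes were (R848-BPDs against free R848, free R848 against saline, R848-BPDs against saline). *Cd274* was among those not called (1.08 ± 0.27, adjusted p = 0.102). The lists' median log2 fold changes for R848-BPDs against saline lay between -0.25 and 0.66, against 0.34 to 1.53 in all DC-like cells.

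Genes of DC subset identity had negative medians for the same contrast in all DC-like cells, -1.77 for type 1 and -2.06 for type 2 conventional DCs. Of 8 tested genes of type 1 conventional DCs, 4 fell and 1 rose after R848-BPDs (8.51% and 9.72% of all genes did), among them *Clec9a*, from 76.6 to 11.2 CPM (log2 fold change -2.58 ± 0.58, adjusted p = 0.0065), and *Xcr1*, from 48.3 to 8.84 CPM (-2.40 ± 0.75, adjusted p = 0.036). On either side of the gate no type 1 gene was called. This held for 4 tested in mature cells and 7 in other DC-like cells (0.787% and 5.68% of all genes were called). Of 6 of type 2, 3 fell in all DC-like cells, with *Mgl2* from 319 to 13.8 CPM (-4.58 ± 0.80, adjusted p = 0.0015), and 2 fell in other DC-like cells. *Cd209a* went from 89.9 CPM after saline to 16.1 CPM after free R848 (-2.64 ± 0.46, adjusted p = 0.022) and was listed at 0 in both R848-BPD tumors. *Mgl2* was also called within mature cells (-4.95 ± 0.78, adjusted p = 0.017). Across 40 class and tumor points, the genes whose level followed the mean of the list most closely were *Flt3* (Pearson r = 0.985), the growth factor receptor of DCs, *Strip2* (0.965), *Ramp3* (0.960), *Bcl2l14* (0.955) and *Map3k14* (0.954), the kinase of the noncanonical NF-κB pathway, followed by *Syngr2*, *Rogdi*, *Ncoa7*, *Mmp25* and *Jak2* (0.928 to 0.954). These points share libraries, and the relation mainly separates DC-like from other classes. *Flt3* and *Bcl2l14* were also among the markers used to name the DC-like class.

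Monocyte/macrophage-like cells held low levels of the list apart from *Cd83*, and there *Cd83* fell. It stood at 829, 571 and 854 CPM after saline, 428, 502 and 578 CPM after free R848 and 207 and 178 CPM after R848-BPDs. The R848-BPD tumors were below all free R848 tumors, while the second saline tumor was within the free R848 range. The log2 fold change for R848-BPDs was -1.94 ± 0.25 against saline (adjusted p = 0.0044) and -1.35 ± 0.25 against free R848 (adjusted p = 0.035), where 3.67% and 0.682% of 10557 genes were called lower. At full depth, cells with a *Cd83* UMI were 81.1 ± 3.96% after saline, 74.1 ± 1.40% after free R848 and 43.7 ± 5.93% after R848-BPDs. Thinned to 2000 UMIs, with 141, 49 and 13 shallower cells left out, they were 65.0 ± 5.98%, 52.1 ± 5.30% and 25.7 ± 0.634%. With the replicate number as a block, *Cd83* was not called against free R848. The call against free R848 ended when any free R848 or R848-BPD tumor or the first saline tumor was left out (log2 fold change -1.47 to -1.20, adjusted p = 0.057 to 0.30), and that against saline without the second R848-BPD tumor (adjusted p = 0.061). *Fscn1* was the other gene called, between R848-BPDs and saline, at 5.67, 8.64 and 5.87 CPM after saline, 17.6, 11 and 15.6 CPM after free R848 and 15.5 and 17.4 CPM after R848-BPDs (log2 fold change 1.29 ± 0.27, adjusted p = 0.026, where 3.73% of genes were called higher), a call lost without either R848-BPD tumor or the first saline tumor (adjusted p = 0.065 to 0.17), with the 2 groups alone (0.063), with the replicate block (0.070) and with cells thinned to 2000 UMIs (0.064). Between free R848 and saline no gene of the list was called by edgeR or DESeq2, with 4 of 8 at an unadjusted p under 0.05, and edgeR called 0.0189% of all genes. Of 8 costimulatory and checkpoint genes tested there, 2 rose and 2 fell between R848-BPDs and saline. Those that rose were *Cd200* (4.30 ± 0.62, adjusted p = 0.0063) and *Cd274* (1.43 ± 0.30, adjusted p = 0.025), and those that fell were *Cd86*, a costimulatory ligand of CD28 (-1.63 ± 0.20, adjusted p = 0.0038), and *Icosl*, which encodes the ligand of ICOS (-1.92 ± 0.29, adjusted p = 0.0078).

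Counts of *Cd83* in NK-like and MC38-like cells were low, and lower after R848-BPDs than after saline. In NK-like cells it stood at 78.9, 45.2 and 78.8 CPM after saline, 58.8, 60.9 and 20.5 CPM after free R848 and 18.4 and 0 CPM after R848-BPDs (log2 fold change -2.16 ± 0.46, adjusted p = 0.026, where 0.341% of genes were called lower), with no UMI among the 235564 of the second R848-BPD tumor. In MC38-like cells it stood at 31.2, 50 and 25.1 CPM after saline, 23.1, 12.8 and 6.28 CPM after free R848 and 7.38 and 9.53 CPM after R848-BPDs (-2.07 ± 0.41, adjusted p = 0.035, where 0.84% were). The NK-like call ended without either R848-BPD tumor or the first saline tumor (adjusted p = 0.062 to 0.084) and with DESeq2 (0.24), and the MC38-like call without the second free R848 tumor, the second R848-BPD tumor or any saline tumor (0.051 to 0.17). In T-like cells, whose *Cd83* stood at 387, 279 and 333 CPM after saline, 127, 264 and 199 CPM after free R848 and 149 and 209 CPM after R848-BPDs, no gene of the list was called in any comparison by edgeR or DESeq2, where edgeR called 0.0655%, 0.0% and 0.0393% of genes, and 1, 3 and 4 of 9 had an unadjusted p under 0.05. In monocyte/macrophage-like cells *Cd83* stood at 751 ± 157 CPM after saline, 503 ± 75.4 CPM after free R848 and 192 ± 20.3 CPM after R848-BPDs, and the part of free RNA from such cells in the counts of the other classes was not tested. A difference in change between classes was not tested.

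Markers of other cells were counted in the mature DC-like cells. The defining neutrophil genes *S100a8*, *S100a9* and 6 others summed to 542 to 624 CPM after R848-BPDs, with none of 8 at 0, against 95.8 to 222 CPM after free R848 and 313 to 671 CPM after saline. The 11 macrophage markers summed to 1871 to 2683 CPM, 441 to 2138 CPM and 368 to 2425 CPM, the 7 osteoclast markers to 301 to 495 CPM, 32.9 to 79.8 CPM and 0 to 141 CPM, and the 11 T cell markers to at most 68.1 CPM in any tumor. The part of RNA from other cells in the *Ccl22* result was not tested. *Ccl22* itself was at 0.372 to 12.8 CPM in monocyte/macrophage-like cells, tumor by tumor.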

How the data were processed

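Seq-Well libraries of 8 MC38 tumors were used. The files the authors deposited hold whole-number UMI counts of each gene by cell barcode, 1 matrix a tumor, from reads aligned to mm10, with no normalization. The members of the maturation list, the other gene lists and the tests were chosen with earlier results of these data known. Following the study's limits, barcodes were kept at over 400 genes, below 10000 genes, below 50000 UMIs and up to 15% mitochondrial reads. Doublets marked by Scrublet were kept in the main analysis. Cells were clustered with Seurat 5.3.0, first to set aside MC38-like cells and then without the maturation genes, and classes were named from marker lists. Counts were summed per tumor and class where a tumor had at least 10 cells, and all 3 treatments were fitted together with edgeR 4.0.16 (R 4.3.3, TMM factors, filterByExpr, quasi-likelihood test, Benjamini-Hochberg threshold of 0.05 over all genes tested). DESeq2 1.42.0 served as an alternative. Shares were compared over tumors by two-sided exact permutation tests, and intervals of shares are exact Clopper-Pearson intervals that cover counting error only. Genes named are the maturation genes, up to 4 called members of each list with the largest absolute log2 fold change, from which examples are given, and the 10 genes most correlated with the list. Scripts were tested on simulated counts. Per the study's methods each tumor came from its own mouse. CPM of 3′ counts was compared within a gene only.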

Additional observations from a re-analysis of the deposited data

How the results depend on the processing

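With 2 or 3 tumors per treatment, single tumors decided many counts, and where an arm kept 1 tumor it was assumed to vary like the other groups. The leave-one-out counts are not set beside the share of all genes called in the same fits. They therefore show how far calls moved and not whether the list moved more than other genes. Leaving out 1 tumor at a time, the number of the 10 genes called in DC-like cells ranged from 0 to 1 for R848-BPDs against free R848 (0 with all tumors), from 0 to 3 for free R848 against saline (3) and from 4 to 8 for R848-BPDs against saline (7). In mature cells, over the 8 genes outside the gate and in the same order of comparisons, it ranged from 0 to 1 (0), from 0 to 0 (0) and from 1 to 2 (1). In other DC-like cells it was 0 to 1 (0), 0 to 0 (0) and 0 to 5 (3), and in monocyte/macrophage-like cells 0 to 1 (1), 0 to 0 (0) and 0 to 3 (2). Over T-like, NK-like and MC38-like cells it was 0 to 3 (2), and between mature and other cells 7 to 7 (7). The mature share differed by 18.2 to 28.9, 27.0 to 37.7 and 51.8 to 60 points. The DC-like share differed by 1.06 to 2.57, -3.12 to 2.08 and -1.35 to 3.85 points, and its direction turned without free R848 replicate 1 (0.059), saline replicate 1 (2.08) and saline replicate 2 (-1.35).

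With no filter on low counts, 2 genes were called in DC-like cells against free R848 and 8 between free R848 and saline (1.59% and 2.92% of all genes were), 1, 1 and 2 in mature cells (0.608%, 0.216% and 0.878%), 2 and 5 in other DC-like cells (free R848 and R848-BPDs against saline, 0.462% and 2.87%), 4 and 6 in monocyte/macrophage-like cells (R848-BPDs against free R848, free R848 against saline, 4.59% and 2.59%) and 17 over the T-like, NK-like and MC38-like cells (1.63% of tests). DESeq2 called 1 gene in mature cells against free R848 (0.337%), 1 in other DC-like cells (3.06%) and 1 over the T-like, NK-like and MC38-like cells (0.775%). With only the 2 groups compared in the fit, mature cells gave 1 against free R848 and 2 against saline (1.27% and 0.411%), other DC-like cells 5 (6.72%) and monocyte/macrophage-like cells 1 (1.7%). Cells thinned to 2000 UMIs gave 1 in monocyte/macrophage-like cells against saline (5.42%) and 1 over the T-like, NK-like and MC38-like cells (0.516%). With the mature cluster in place of the gate, chosen after seeing the data, mature cells gave 1 and 2 (1.5% and 3.41%). Other DC-like cells then gave 0, *Fscn1* (-2.66) and *Il4i1* (-0.44) turned direction, and the R848-BPD arm was 1 tumor with 13 cells, so that fit says nothing about stability. The second gene called in mature cells was *Ccl17*. Thinning to 1000 UMIs moved the mature share difference against free R848 to 10.7 points. The causes were not tested.

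Replicate numbers did not pair the tumors (correlations of -0.169 to 0.0629). With the replicate block, 1 gene was called in other DC-like cells (R848-BPDs against saline, 2.49% of all genes), 0 and 1 in monocyte/macrophage-like cells (against free R848 and saline, 0.635% and 3.97%), and the mature share differed by 23.7, 32.3 and 55.5 points. A minimum of 5 cells per tumor gave the same sums, since no tumor had 5 to 9 cells of the classes tested or on either side of the gate. Depth limits *Ccl17*, with 2 to 181 UMIs per tumor in DC-like cells, and the mature cells after saline, 46 in all.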
